A study of Mus musculus with 6 samples.

Results

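The genes described here carry a Zfp symbol with a number, the name given in the mouse to many zinc finger proteins. They were found by rule: a probe set whose annotation gave a single symbol that starts with Zfp and a digit, and, for each gene, the probe set that was brightest by its mean of all 6 arrays. The rule gave 173 genes of 12393 genes measured, represented by 254 of 20380 probe sets with a single symbol. All 173 were found in the RefSeq mouse gene table, where 171 are protein coding, Zfp353-ps is a pseudogene and Zfp85os is a long noncoding RNA.

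Transcripts were measured on 6 Affymetrix-type arrays of regulatory T cells (Treg) from mice. These are CD4 T cells that hold back immune responses and depend on the transcription factor Foxp3. Every sample was sorted as CD4+YFP+ from mice on a C57BL/6 background that carried Foxp3cre, in which Cre recombinase follows Foxp3. The 3 USP7-titled arrays are described in the series text as fl-Usp7/Foxp3cre, a conditional deletion of the deubiquitinase Usp7, whereas their genotype field reads fl-HDAC11/Foxp3cre. The 3 control arrays carry B6_WT titles and the genotype Foxp3cre without a floxed allele. The labels give no age or sex and do not say whether each sample is from a separate mouse, so the p-values cover only how far these samples differ among themselves, which may be technical.

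Zinc finger proteins fold short stretches of protein around a zinc ion. In the commonest kind, C2H2 fingers in a row read DNA letters, and many of these proteins also carry a KRAB domain that recruits Trim28 and, through it, the histone methyltransferase Setdb1, which silences transposable elements and imprinted genes. A much smaller kind, the CCCH fingers of Zfp36, Zfp36l1 and Zfp36l2, binds AU-rich elements in messenger RNA and brings about its decay, which limits cytokine production in T cells. KRAB zinc finger genes lie in clusters of duplicated copies, many of them expressed at low levels.

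Usp7 read 10.54, 10.69 and 10.76 on the log2 scale in USP7-titled arrays and 11.69, 11.73 and 11.61 in control arrays. Hdac11 read 6.04, 5.65 and 5.74 in USP7-titled arrays and 6.66, 6.20 and 6.29 in control arrays. Of 9 measured Treg and T cell markers 7 were lower and none higher. Cd4 averaged 12.83 in USP7-titled and 12.82 in control arrays, but Foxp3, which defines the cells, averaged 7.004 in USP7-titled and 12.98 in control arrays. Of 16 myeloid markers, 12 were higher and 1 lower, with a list mean of 8.44 to 8.64 in USP7-titled and 7.02 to 7.38 in control arrays; 3 of 9 B cell markers were higher, 3 of 9 CD8 T and NK markers higher and 1 lower, and 3 of 7 dendritic markers higher and 1 lower. Over all genes, 17% were higher and 15.9% lower. All 15 measured cell cycle genes were higher, by a median of 2.56. The X-inactivation RNA Xist averaged 5.30 in USP7-titled and 12.50 in control arrays, and Y-linked Eif2s3y 10.15 in USP7-titled and 4.50 in control arrays, so the sex of the mice and the group cannot be told apart. In RNA from whole sorted samples, fewer cells of a type and less RNA per cell cannot be told apart either. The part of these differences in the values of the Zfp genes was not tested.

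Many more Zfp genes fell than rose in USP7-titled Treg. In limma's moderated test, adjusted by Benjamini-Hochberg over all 12393 genes at a threshold of 0.05, 63 of the 173 fell (36.4%), 3 rose (1.73%) and 107 did not pass. Over all genes, 15.9% fell and 17% rose. The groups did not overlap, with all 3 USP7-titled arrays below all 3 control arrays, in 70 Zfp genes (40.5%, against 24.7% of all genes). They did not overlap in the other direction in 6 (3.47%, against 20.9%). Of the 63 that fell, 61 had groups that did not overlap, the exceptions being Zfp418 and Zfp142.

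The median log2 change, USP7-titled minus control, was -0.22 over the Zfp genes and -0.05 over all genes. The quartiles were -0.49 and -0.06 for the Zfp genes, against -0.23 and 0.18 for all genes. In 141 of the 173 the change was negative (81.5%, against 57.3% of all genes). Falls of at least 0.5 that passed the test numbered 40 (23.1%, against 7.84% of all genes), and rises of that size 2 (1.16%, against 9.15%). Falls of at least 1 were seen in 4 of the 173 Zfp genes, against 152 of all 12393 genes. Of the 4, 3 lay in the dimmest of 3 equal groups of genes by mean level, as did 32 of the 152. Scaled to the hybridization spikes, which moved the median of all genes to 0.11, the Zfp median was -0.06; this scaling shifts every gene of an array alike, so the gap of 0.16 between the medians is the same by construction. On that scale 38 Zfp genes fell (22%, against 7.62% of all) and 11 rose (6.36%, against 23.9%).

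**Figure D1:**
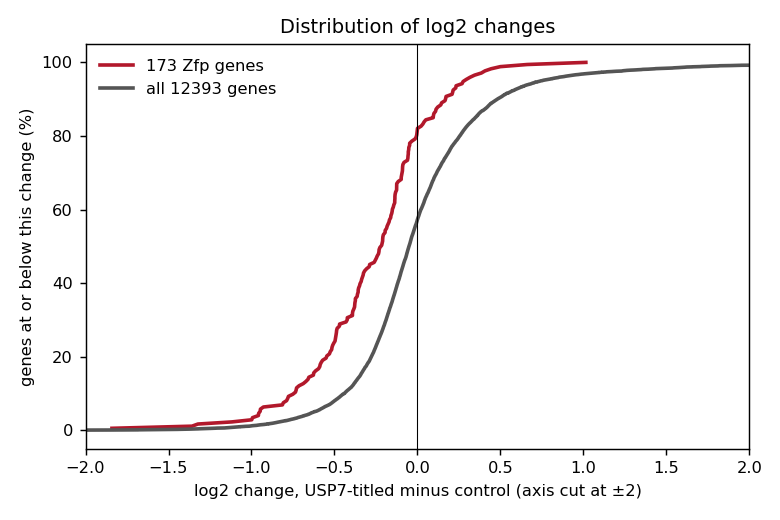
Share of genes (vertical axis, %) whose log2 change, USP7-titled minus control, lies at or below the value on the horizontal axis, for the 173 Zfp genes and for all 12393 genes. The Zfp curve lies left of the other over most of the range, with medians of -0.22 and -0.05, and ends at a rise of 1.01.

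The lower level was present in each array and did not come from a single sample. The mean log2 level over the 173 genes was 7.45, 7.49 and 7.47 in USP7-titled arrays, against 7.78, 7.72 and 7.72 in control arrays. The median deviation from a gene's own mean was -0.15, -0.11 and -0.14 in USP7-titled arrays, against 0.16, 0.09 and 0.09 in control arrays. The same deviation over all genes was 0.00, -0.03 and -0.03 in USP7-titled arrays, against 0.04, 0.01 and 0.01 in control arrays. Leaving out each array in turn left 44 to 57 Zfp genes lower and 2 to 7 higher.

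**Figure D2:**
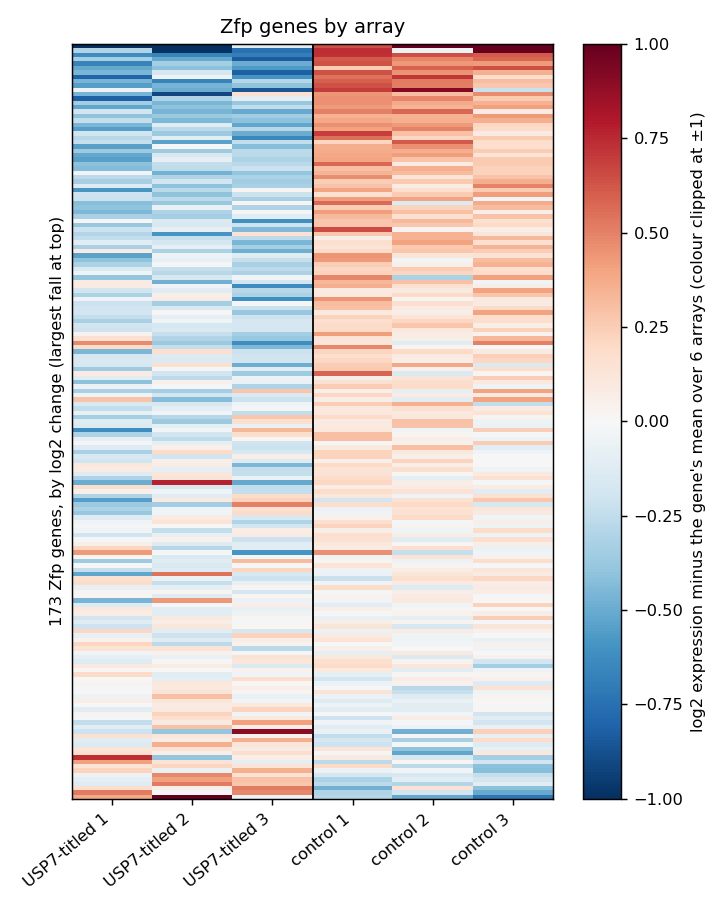
Log2 level of each of the 173 Zfp genes (rows, ordered by log2 change) in each array (columns) minus the gene's mean over 6 arrays, with colour clipped at ±1. Most rows are blue in the 3 USP7-titled arrays and red in the 3 control arrays, and the few rows with the opposite order lie at the foot.

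All 3 listed CCCH messenger RNA decay factors fell, beside 36.4% of all Zfp genes and 15.9% of all genes. The 3 genes lie in the brightest of 3 equal groups of genes by mean level. In that group 56.7% of Zfp genes and 23.6% of all genes fell. The list was chosen with earlier results of these data known, so its count is a description. Zfp36l1, which with Zfp36l2 holds developing lymphocytes in quiescence while their antigen receptor genes recombine, read 11.55, 11.58 and 11.60 in USP7-titled arrays, against 12.30, 12.30 and 12.38 in control arrays. It fell by 0.75 (SE 0.05, limma adjusted p = 4.35e-07), which left 59.4% of the control signal. Zfp36l2 read 11.01, 11.02 and 11.11 in USP7-titled arrays and 11.74, 11.74 and 11.63 in control arrays. It fell by 0.65 (SE 0.06, limma adjusted p = 9.67e-06), and again every USP7-titled array lay below every control array. In the fit over all probe sets, the 2 dimmer probe sets of Zfp36l2 gave smaller changes. These were -0.31 (limma adjusted p = 0.00861) and -0.22, which did not pass (limma adjusted p = 0.168). Zfp36, also called tristetraprolin, read 11.5828, 11.7241 and 11.6151 in USP7-titled arrays, against 12.0508, 11.9614 and 12.0004 in control arrays. It fell by 0.36 (SE 0.05, limma adjusted p = 3.08e-04); scaled to the hybridization spikes, Zfp36 differed by -0.20 and did not pass (limma adjusted p = 0.0637), while the other 2 passed.

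All 3 were among the 6 Zfp genes with the highest signal. The start regions of Zfp36 and Zfp36l1 are shown because all 3 genes of this list fell and are among the brightest. Zfp36l2 had no entry among the promoters read. RefSeq (GRCm38.p6) promoters, from 250 bases before to 50 after the gene's start, are given 5′ to 3′ in the direction of the gene, and capitals mark letters that match a searched motif.
Zfp36 promoter, GRCm38.p6 chr7:28379179-28379478, minus strand: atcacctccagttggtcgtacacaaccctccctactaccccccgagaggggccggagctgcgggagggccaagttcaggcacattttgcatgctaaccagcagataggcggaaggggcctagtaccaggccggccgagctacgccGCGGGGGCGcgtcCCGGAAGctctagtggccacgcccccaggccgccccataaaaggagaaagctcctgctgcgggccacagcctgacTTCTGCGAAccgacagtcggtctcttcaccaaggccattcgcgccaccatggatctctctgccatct
Zfp36l1 promoter, GRCm38.p6 chr12:80112964-80113263, minus strand: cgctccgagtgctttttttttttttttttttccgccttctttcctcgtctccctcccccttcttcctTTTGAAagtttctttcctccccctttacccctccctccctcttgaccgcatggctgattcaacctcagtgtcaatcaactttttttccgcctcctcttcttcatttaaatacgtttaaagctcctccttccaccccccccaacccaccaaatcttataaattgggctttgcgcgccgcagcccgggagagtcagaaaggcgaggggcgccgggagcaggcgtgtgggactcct
In the Zfp36 promoter the capitals mark, in order, the EGR motif GCGGGGGCG, the ETS motif CCGGAAG and the STAT motif TTCNNNGAA. In the Zfp36l1 promoter they mark TTTGAA, the core of the cell cycle homology region. Of all 32851 mouse promoters read, 2.91% held the EGR motif, 8.86% the ETS motif, 8.3% the STAT motif and 17.9% TTTGAA on either strand.

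Among the Zfp genes with a role in lymphocytes, 7 of 12 listed were measured and 4 fell, beside 36.4% of all Zfp genes and 15.9% of all genes. Zfp91, a ubiquitin ligase that acts on the kinase NIK in noncanonical NF-kB signalling, was the brightest Zfp gene. It read 12.07, 12.12 and 11.91 in USP7-titled arrays, against 12.25, 12.25 and 12.29 in control arrays. The fall of 0.23 (SE 0.06, limma adjusted p = 0.00767) was small, and was -0.07 when scaled to the hybridization spikes (limma adjusted p = 0.537). The call was also lost with the mean of all probe sets (-0.19, limma adjusted p = 0.0517) and without the mean-variance trend (limma adjusted p = 0.0845). Zfp281, a repressor known from pluripotent stem cells, read 10.20, 10.35 and 10.19 in USP7-titled arrays, against 10.79, 10.80 and 10.90 in control arrays. It fell by 0.58 (SE 0.08, limma adjusted p = 1.48e-04). Zfp318, needed in B cells to make IgD from the long transcript, averaged 8.94 ± 0.23 in USP7-titled and 9.56 ± 0.07 in control arrays (SD, n = 3 each) and fell by 0.63 (limma adjusted p = 0.00234). Without probe sets of the _a_at, _s_at and _x_at types its brightest remaining probe set gave -0.38 (limma adjusted p = 0.0903). Zfp1 fell by 0.59 (SE 0.12, limma adjusted p = 0.00368). Zfp131, which thymocytes need to develop, differed by -0.14, Zfp148 (ZBP-89) by -0.10 and Zfp276 by -0.13, and none of these 3 passed; all 3 changed sign when scaled to the spikes.

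Of 9 listed genes of translation and RNA handling, 6 were measured and 3 fell (50%), beside 36.4% of all Zfp genes and 15.9% of all genes. Zfp598, the ubiquitin ligase that recognises collided ribosomes, read 9.21, 9.19 and 9.43 in USP7-titled arrays, against 9.86, 9.69 and 9.81 in control arrays. It fell by 0.51 (SE 0.10, limma adjusted p = 0.00253), with groups that did not overlap. Zfp638, known as NP220 and a silencer of unintegrated retroviral DNA, fell by 0.52 (SE 0.10, limma adjusted p = 0.00219). Zfp106, an RNA-binding protein that motor neurons need, fell by 0.50 (SE 0.08, limma adjusted p = 8.81e-04). Its 4 other probe sets had changes from -0.61 to -0.06, and only 1 of these 4 passed in the fit over all probe sets. Zfp622, which acts late in the making of the large ribosomal subunit, read 11.99, 12.08 and 12.10 in USP7-titled arrays, against 11.94, 11.89 and 11.98 in control arrays. Its groups did not overlap but the difference of 0.12 did not pass (limma adjusted p = 0.0735), except when scaled to the spikes (0.28, limma adjusted p = 0.0143), with array weights or without USP7-titled replicate 1. Zfp326, a partner of RNA polymerase II at alternatively spliced exons, differed by -0.32 and Zfp593 by -0.13, neither past the threshold.

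Of 8 listed imprint and pluripotency genes, 6 were measured, and 1 fell and 1 rose. These shares, 16.7% each, were near those of all genes (15.9% fell and 17% rose). Zfp445, a KRAB protein that keeps imprints, read 8.97, 8.81 and 8.35 in USP7-titled arrays, against 9.23, 9.29 and 9.12 in control arrays. It fell by 0.50 (SE 0.15, limma adjusted p = 0.0228), a call lost when scaled to the spikes (limma adjusted p = 0.0951) and when USP7-titled replicate 3 was left out (-0.32, limma adjusted p = 0.0618), or when control replicate 1 (limma adjusted p = 0.0691) or control replicate 2 was (limma adjusted p = 0.081). Zfp568, which represses Igf2 in the placenta, read 7.87, 7.34 and 7.83 in USP7-titled arrays, against 7.05, 7.16 and 6.85 in control arrays. It rose by 0.66 (SE 0.16, limma adjusted p = 0.00799), although the mean of its probe sets gave 0.45 (limma adjusted p = 0.0729). The other 4 measured of this list, Zfp57 (0.21), Zfp42 (Rex1, 0.09), Zfp296 (-0.08) and Zfp322a (0.17), did not pass. Zfp42 was near the bottom of the signal range, with means of 3.58 in USP7-titled and 3.49 in control arrays.

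No gene of the list on p53, the spindle and genome stability passed, of 5 measured of 10. Over all genes, 15.9% fell and 17% rose, so a list of 5 with no call is no result about these genes. Zfp385a, a p53 cofactor, averaged 4.61 ± 0.24 in USP7-titled and 4.11 ± 0.34 in control arrays (SD, n = 3 each), a difference of 0.50 (limma adjusted p = 0.0576) at low signal. It passed with quantile normalization (limma adjusted p = 0.049), scaled to the spikes (limma adjusted p = 0.0146), and with control replicate 2 (limma adjusted p = 0.0126) or USP7-titled replicate 2 left out (limma adjusted p = 0.0484). Zfp346, which binds double-stranded RNA, differed by -0.14 and Zfp830 by -0.25 (limma adjusted p = 0.0594). Zfp830 passed with quantile normalization (limma adjusted p = 0.0336), without the dimmest probe sets (limma adjusted p = 0.0446) and with array weights (limma adjusted p = 0.0434). Zfp451, a SUMO ligase, read 7.26, 8.53 and 7.25 in USP7-titled arrays and 7.96, 7.81 and 7.74 in control arrays. USP7-titled replicate 2 stood above every other array for this gene; with it the difference was -0.16 (limma adjusted p = 0.705), and without it -0.58 (limma adjusted p = 0.00823).

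Zfp207, or BuGZ, which loads Bub3 onto kinetochores, depended on the probe set. Its brightest probe set read 11.43, 11.13 and 11.21 in USP7-titled arrays, against 11.14, 11.25 and 11.26 in control arrays, a difference of 0.04 (limma adjusted p = 0.742). The other 4 probe sets of the gene were all lower, with changes from -0.996 to -0.828, and each passed in the fit over all probe sets. The largest of these differences, -0.996, came from 9.81, 9.50 and 9.45 in USP7-titled arrays, against 10.51, 10.68 and 10.57 in control arrays. The count of 63 therefore does not include Zfp207.

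Of 8 listed developmental cofactors, 6 were measured and 1 passed, as a rise (16.7%, near the 17% of all genes). Zfp703, a repressor cofactor known from luminal breast cells, read 8.12, 8.62 and 8.51 in USP7-titled arrays, against 7.90, 8.10 and 8.04 in control arrays. It rose by 0.41 (SE 0.14, limma adjusted p = 0.0483). The call was lost without the mean-variance trend and in 5 of the 6 fits that left out an array, USP7-titled replicate 1 excepted, where the change ran from 0.30 to 0.45. Zfp423 and Zfp521, both partners of the EBF factors, differed by -0.21 and -0.13 and did not pass, nor did Zfp503 (-0.18), Zfp219 (-0.16) and Zfp64 (0.10).

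**Figure D3:**
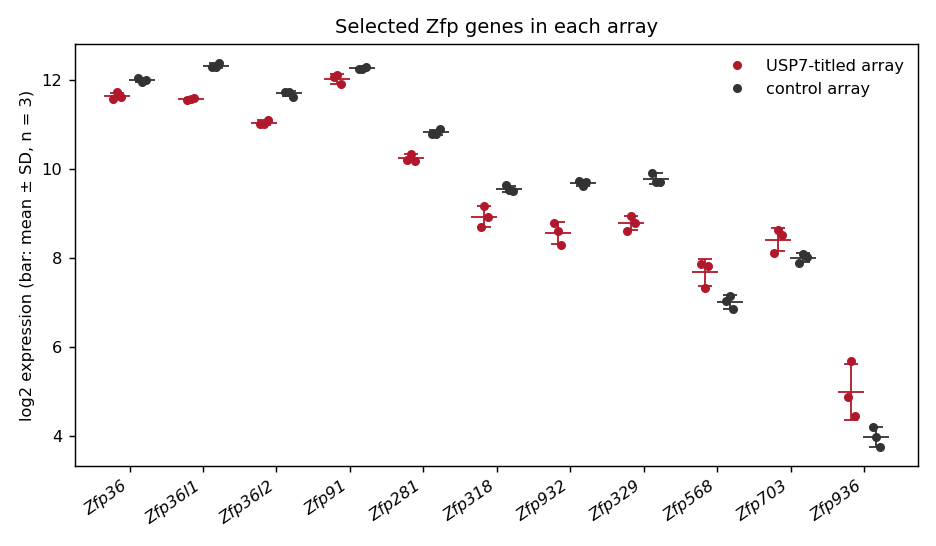
Log2 level of 11 Zfp genes in each array (points), with the mean and SD of 3 USP7-titled arrays (red, left of each pair) and 3 control arrays (dark, right). The 8 genes from Zfp36 to Zfp329 are lower in the USP7-titled arrays, and Zfp568, Zfp703 and Zfp936 are higher.

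The 12 largest falls among genes whose groups did not overlap lay outside these role lists. Zfp418 fell by 0.93 (limma adjusted p = 0.0237) but is not ranked here, since its groups overlapped. Zfp316 fell by 1.84 (SE 0.28, limma adjusted p = 4.76e-04), with 4.67, 4.81 and 5.96 in USP7-titled arrays, against 6.71, 7.10 and 7.16 in control arrays. This was the largest difference of any Zfp gene but at low signal, at the 21.6th percentile of genes by mean level. Zfp932, a KRAB protein that binds and represses endogenous retroviruses in mouse embryonic stem cells, was brighter, with 8.79, 8.62 and 8.30 in USP7-titled arrays, against 9.74, 9.61 and 9.71 in control arrays. It fell by 1.12 (SE 0.13, limma adjusted p = 5.77e-05), to 46.1% of the control signal. Zfp329 read 8.62, 8.95 and 8.79 in USP7-titled arrays, against 9.93, 9.72 and 9.71 in control arrays, and fell by 0.999 (SE 0.11, limma adjusted p = 5.59e-05).

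Zfp397, at the 68.7th percentile of genes by mean level, fell by 0.95, with 8.80, 8.88 and 8.94 in USP7-titled arrays, against 9.98, 9.86 and 9.62 in control arrays. Zfp90, which relieves repression by REST, fell by 0.96 to 51.5% of the control signal, and Zfp623 by 0.81 to 57.1%. Dimmer genes were Zfp202, whose human counterpart represses genes of lipid transport, with a fall of 0.99, Zfp937 with 0.96, Zfp950 with 0.95 and Zfp455 with 0.81. Zfp982 (-1.36) and Zfp975 (-1.32) complete these 12, but both are read by an _x_at probe set, a type that may also bind related genes. For Zfp975 the groups stood well apart, at 5.45, 5.41 and 5.40 in USP7-titled arrays, against 6.81, 6.72 and 6.69 in control arrays. All 12 kept their call when scaled to the spikes.

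Other falls among the brighter genes were of Zfp871 (0.78), Zfp62 (0.78), Zfp292 (0.49), Zfp369 (0.49) and Zfp740 (0.36), picked here after their values were seen. Zfp369 and Zfp110, known as NRIF2 and NRIF1, are partners of the p75 neurotrophin receptor, and Zfp110 fell by 0.37 (limma adjusted p = 0.0166). Zfp644, a partner of the methyltransferase G9a, fell by 0.43 (limma adjusted p = 0.025). In 19 genes the fall passed under all 18 alternative settings run, among them Zfp36l1, Zfp36l2, Zfp281, Zfp598, Zfp638, Zfp106, Zfp871, Zfp932, Zfp329, Zfp397 and Zfp90. Some settings left genes out, such as those without the dimmest probe sets. A gene left out of any setting could not be among the 19, whatever its call elsewhere.

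Only 3 Zfp genes rose. Besides Zfp568 and Zfp703, Zfp936 read 4.87, 5.68 and 4.44 in USP7-titled arrays, against 4.21, 3.98 and 3.77 in control arrays. It rose by 1.01 (SE 0.26, limma adjusted p = 0.0104), though its mean lay above only 6.83% of genes. The nearest to the threshold that did not pass were Zfp282 (0.44, limma adjusted p = 0.0532), Zfp959 (-0.53, limma adjusted p = 0.055), Zfp385a, Zfp830 and the pseudogene Zfp353-ps (0.38, limma adjusted p = 0.0623).

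The share of Zfp genes that fell was above that of all genes at each level of signal. The 12393 genes were divided into 3 equal groups by their mean over all 6 arrays, which is blind to the conditions. Among the dimmest, 29.8% of 57 Zfp genes fell and 1.75% rose, against 6.63% and 3.9% of all genes there. In the middle group, 33.7% of 86 Zfp genes fell and 2.33% rose, against 17.6% and 16.5%. Among the brightest, 56.7% of 30 Zfp genes fell and none of the 30 rose, against 23.6% and 30.5%. Zfp genes were on the whole slightly dimmer than others, with a median at the 45.9th percentile, and 32 of the 63 that fell lay above the median gene.

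**Figure D4:**
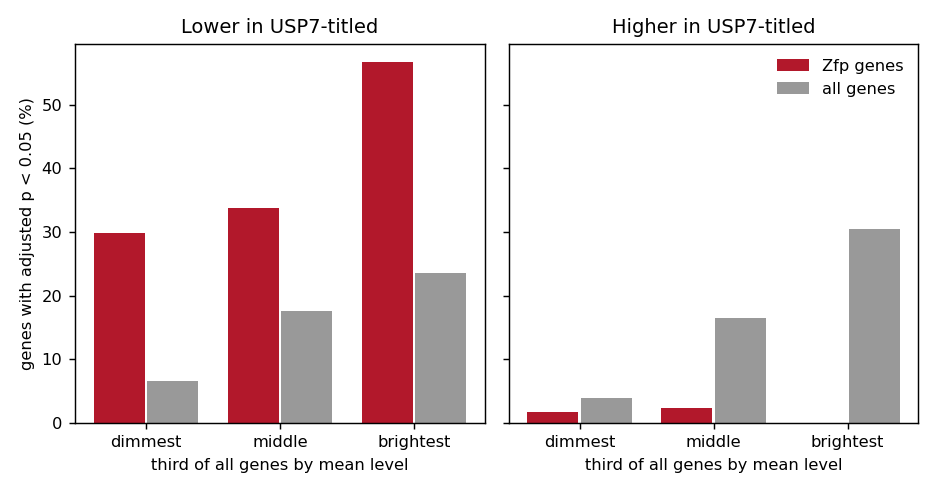
Percentage of Zfp genes (red) and of all genes (grey) with a limma adjusted p under 0.05, lower (left panel) or higher (right panel) in USP7-titled arrays, in 3 equal groups of genes by mean level. The red bars for falls stand at 29.8%, 33.7% and 56.7%, above the grey ones at 6.63%, 17.6% and 23.6%.

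Zfp genes lie in clusters, and falls occurred both inside and outside them. With a cluster defined as at least 3 Zfp genes with no more than 5 other protein-coding genes between neighbours in the RefSeq table, 89 of the measured genes lay in 25 clusters. Of these 89, 34 fell (38.2%) and 2 rose, with a median change of -0.31. Of the 84 outside, 29 fell (34.5%) and 1 rose, with a median of -0.18. In no cluster with 3 or more measured genes did every gene fall. On chromosome 17, the cluster from Zfp160 to Zfp13 had 13 measured genes, of which 5 fell, and its changes ran from -0.61 to 0.32. On chromosome 7, the cluster from Zfp180 to Zfp94 had 8, of which 3 fell (Zfp112, Zfp235 and Zfp94), and the cluster from Zfp84 to Zfp146 had 8, of which Zfp82 fell by 0.73 and Zfp568 rose. Chromosome 7 held 41 measured Zfp genes in all, 13 of them lower and 2 higher, and chromosome 17 held 25, 12 of them lower. Only 4 lay on the X chromosome, where Zfp275 and Zfp280c fell; with X and Y genes left out the counts were 61 lower and 3 higher of 169.

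**Figure D5:**
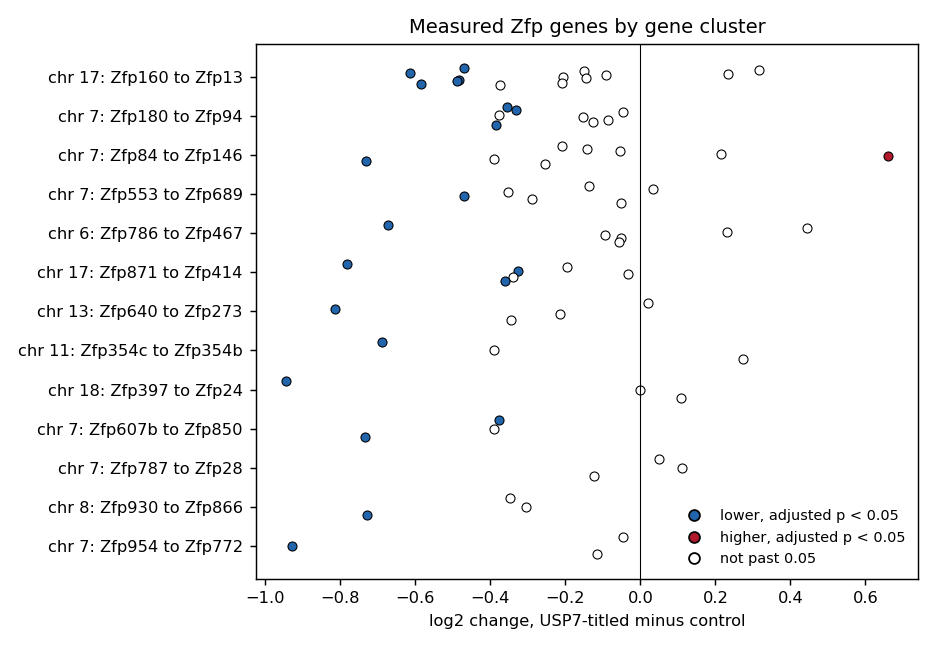
Log2 change, USP7-titled minus control, of each measured Zfp gene (points) in the clusters with at least 3 measured genes (rows, named by their first and last Zfp gene). Filled points passed an adjusted p of 0.05; genes that fell and genes that did not pass lie side by side in the same clusters, and Zfp568 is the single filled point right of 0.

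Promoter letters were compared because many of these genes are duplicates. RefSeq gave 168 promoters for 139 of the Zfp genes. Their median GC content was 55.8%, against 59.0% in 12398 promoters of the other measured genes. A pair of motifs, chosen after the member promoters had been read, was more frequent in them than in other promoters. The first, CCAATCAG, was found on either strand in 14.3% of Zfp promoters, 4.86% of promoters of other measured genes and 4.1% of all promoters. It is shown with 12 bases on each side, capitals marking the motif, for 4 genes that fell and 3 that did not pass, picked from the 21 genes with the motif because their flanking letters are alike.
Zfp932, GRCm38.p6 chr5:109996443-109996474, plus strand: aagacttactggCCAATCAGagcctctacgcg
Zfp937, GRCm38.p6 chr2:150218028-150218059, plus strand: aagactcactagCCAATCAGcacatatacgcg
Zfp950, GRCm38.p6 chr19:61140853-61140884, minus strand: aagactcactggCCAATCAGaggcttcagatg
Zfp120, GRCm38.p6 chr2:150136721-150136752, minus strand: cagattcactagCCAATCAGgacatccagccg
Zfp931, GRCm38.p6 chr2:178078514-178078545, minus strand: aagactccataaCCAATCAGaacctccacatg
Zfp33b, GRCm38.p6 chr5:104571569-104571600, plus strand: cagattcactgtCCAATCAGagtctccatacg
Zfp958, GRCm38.p6 chr8:4613093-4613124, plus strand: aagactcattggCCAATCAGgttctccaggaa
The first 4 lines are genes that fell and the last 3 genes that did not pass. Other genes with the motif, such as Zfp189, which fell, and Zfp672, which did not pass, have unlike letters around it. Of the 21 Zfp genes with CCAATCAG, 10 fell (47.6%), and of the 118 without it, 43 fell (36.4%). The median changes were -0.34 with it and -0.22 without it, and the difference was not tested. Over all measured genes with a promoter, 15.9% of those with it fell and 26.0% rose.

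The other motif was ACTACANNT, whose opposite strand reads ANNTGTAGT. It was found on either strand in 16.7% of Zfp promoters, 4.54% of promoters of other measured genes and 4.16% of all promoters. In 28 Zfp genes it occurred 33 times, 27 of them directly after the letters GGG, and 15 of the 28 genes lie on chromosome 7. Windows from the chromosome 7 cluster of Zfp180 to Zfp94 are shown on the strand that reads ANNTGTAGT, with the element in capitals, for Zfp112 and Zfp94, which fell, and for Zfp111, Zfp109, Zfp108 and Zfp93, which did not pass.
Zfp112, GRCm38.p6 chr7:24112162-24112194, plus strand: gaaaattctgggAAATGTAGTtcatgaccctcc
Zfp94, GRCm38.p6 chr7:24316801-24316833, minus strand: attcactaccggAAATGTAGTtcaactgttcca
Zfp111, GRCm38.p6 chr7:24208190-24208222, minus strand: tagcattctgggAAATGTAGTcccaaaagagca
Zfp109, GRCm38.p6 chr7:24237700-24237732, minus strand: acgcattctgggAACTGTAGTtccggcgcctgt
Zfp108, GRCm38.p6 chr7:24254661-24254693, plus strand: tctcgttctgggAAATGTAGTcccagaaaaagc
Zfp93, GRCm38.p6 chr7:24270337-24270369, plus strand: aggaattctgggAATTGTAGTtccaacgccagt
The same element stood in genes that passed as lower and in genes that did not pass, but these differ only by the threshold. All the genes shown had negative changes: -0.36 for Zfp112 and -0.38 for Zfp94, which fell. Zfp109 (-0.38), Zfp108 (-0.15), Zfp93 (-0.09) and Zfp111 (-0.05) did not pass. Of the 28 Zfp genes with it, 7 fell (25%), and of the 111 without it, 46 fell (41.4%). The median changes of the 2 sets were close, at -0.22 with it and -0.24 without it, and the difference in counts was not tested. Over all measured genes with it, 18.6% fell and 19.3% rose. The STAT motif TTCNNNGAA was found in 16.1% of Zfp promoters, against 6.85% of those of other measured genes, but 10 of its 33 occurrences shared letters with the element, 9 of them as TTCTGGGAA, as in the Zfp112 window. The ETS motif was found in 19.0%, against 13.9%. E2F motifs, in the forms TTTCCCGC and TTTGGCGC, were in 1.19% and 2.38% of Zfp promoters, against 1.69% and 0.799%. A match to these letters describes the sequence and is not a binding site.

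In the genes that fell, probe sets of the same gene mostly gave the same direction. Of 58 Zfp genes with more than 1 probe set, 22 were among those that fell. In 21 of the 22 every other probe set also had a negative change, the exception being Zfp644, and in 16 at least 1 other probe set was itself called lower. No other probe set of these 22 was called higher. Among 35 genes with several probe sets and no call, 5 had a dimmer probe set called lower (Zfp148, Zfp207, Zfp46, Zfp467 and Zfp955b) and none a dimmer one called higher. In these 35 the direction was less uniform, and many had a probe set of the opposite sign. Zfp24, for example, differed by 0.11 in its brightest probe set and by -0.31 to -0.01 in the other 3. Zfp84 differed by -0.21 in its brightest and by 0.11 in the other. By type, 53 of 148 genes read by a plain probe set fell, 6 of 11 by _a_at, 1 of 5 by _s_at and 3 of 9 by _x_at.

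The partners that KRAB zinc finger proteins work through held both rises and falls. Of 28 listed, 23 were measured, 5 rose (21.7%) and 3 fell (13%), near the shares of all genes (17% and 15.9%), with a median change of -0.02. Trim28, the corepressor that the KRAB domain binds, read 10.89, 10.98 and 10.89 in USP7-titled arrays, against 10.83, 10.88 and 10.82 in control arrays, a difference of 0.08 (SE 0.06, limma adjusted p = 0.386). Setdb1, its methyltransferase, differed by -0.19 (limma adjusted p = 0.318). The rises were of Uhrf1 (2.32), which brings DNA methyltransferase to newly copied DNA, Dnmt1 (0.67), the maintenance methyltransferase, Cbx5 (0.85) and Cbx1 (0.41), heterochromatin proteins, and the deacetylase Hdac1 (0.20). Uhrf1 and Dnmt1 are also known to follow the cell cycle, whose 15 listed genes all rose. Any link between these rises was not tested. The falls were of the chromatin remodeller Atrx (-0.46), Mphosph8 of the HUSH silencing complex (-0.37) and Chd4 of the NuRD complex (-0.27). Scaled to the spikes, Atrx still fell while Mphosph8 and Chd4 did not pass. The other 15, from -0.31 for Trim33 to 0.20 for Mta2, did not pass.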

How the data were processed

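Expression was measured in 6 RNA samples, 3 USP7-titled and 3 control, with 1 array each. Per the labels' protocols, RNA was isolated with RNeasy, and 100 ng was biotin-labelled with Ambion's MessageAmp Premier kit. The authors deposited the values as log2 expression, 1 per probe set; that the base is 2 was inferred from their range, 2.21 to 14.47. How the authors summarised and normalized the arrays is not stated in the labels or headers read. Low signals compress differences, and arrays made alike hide a change in total RNA. Of 22690 probe sets, 64 array controls, 691 with several symbols and 1555 with none were set aside. The platform annotation and RefSeq (GRCm38.p6) gave names, chromosomes, neighbours and promoters, those on chromosome 18 not being used here.

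The brightest probe set of each gene entered a limma (version 3.58.1, R 4.3.3) fit, lmFit and eBayes with trend=TRUE. Its p-values are two-sided and adjusted by Benjamini-Hochberg over 12393 genes. The fit was tested on simulated data. Arrays correlated at 0.991 to 0.992 among USP7-titled, 0.995 to 0.996 among control and 0.969 to 0.974 between groups; Gapdh 3' minus 5' was 0.908 to 0.986 in USP7-titled and 0.989 to 1.23 in control arrays. With 3 arrays per group, their number limits the precision.

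Members and lists were chosen with earlier results of these data known. Named genes were the 12 largest falls and up to 12 rises that passed with groups apart, all measured genes of the role lists, the 6 brightest and the 5 nearest misses; in other lists, genes that passed. Other names were chosen after their values were seen. Alternatives covered scaling, dim probe sets, probe set choice, empirical Bayes, array weights, a replicate block, the X and Y chromosomes, the threshold and each array left out.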

Additional observations from a re-analysis of the deposited data

How the results depend on the processing

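Of the 863 values recomputed for named genes, 801 kept their direction and side of the threshold, 16 changed sign without passing in either fit, 20 no longer passed, 24 newly passed and 2 reversed. Both reversals were Zfp207, at -0.74 with the mean of all probe sets (limma adjusted p = 4.77e-05) and -0.94 without _x_at, _s_at and _a_at probe sets (limma adjusted p = 1.45e-06). The count of Zfp genes lower was 46 to 63 under the other settings, 42 at an adjusted p of 0.01, 44 to 57 with each array left out, and 38 when scaled to the hybridization spikes. The 46 were of only 108 Zfp genes left without the 40% dimmest probe sets (42.6%, against 22.9% of all genes there). The count higher was 5 with quantile normalization, 11 scaled to the spikes, 6 with array weights, 1 at 0.01 and 2 to 7 with each array left out, the 7 without USP7-titled replicate 1. The Zfp median was -0.057 scaled to the spikes and -0.26 to -0.21 with each array left out. Over all genes, 944 fell and 2968 rose scaled to the spikes, which turned the share of rises among called genes to 75.9% from 51.5%, and 1206 fell at 0.01. In every setting a larger share of Zfp genes than of all genes fell. The cause of these differences was not tested. With the replicate number as a block, 60 Zfp genes were lower and 4 higher. Deviations of same-numbered arrays correlated at 0.08, -0.06 and 0.09, against -0.15 to 0.08 for arrays of unlike number. With 3 arrays a group, these values cannot decide whether the numbers pair the samples. Calls rest on 3 arrays a group, and dim genes can hide differences.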

Other observations

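Other families of zinc-binding proteins are given as values, with no test of their difference from the Zfp genes or from all genes, of which 15.9% fell and 17% rose. Of 24 measured Zbtb genes, 8 fell and 2 rose, with a median of -0.12 that became 0.04 when scaled to the hybridization spikes. Zbtb20, a repressor with roles in B and T cells, averaged 8.35 ± 0.18 in USP7-titled and 9.75 ± 0.27 in control arrays (SD, n = 3 each), and Zbtb32, induced in activated lymphocytes, 9.90 ± 0.06 in USP7-titled and 8.14 ± 0.11 in control arrays. Of 11 Zscan and Zkscan genes, 5 fell and none rose, with Zscan26 at 9.47, 9.56 and 9.79 in USP7-titled arrays, against 10.80, 10.98 and 11.01 in control arrays. Of 14 Klf genes, 4 fell and 2 rose, with a median of -0.14 that became 0.02 when scaled to the spikes. Klf12 rose by 1.61 and Klf7 fell by 0.83. Of 8 Zc3h genes, 3 fell and none rose, Zc3h12a (Regnase-1, an RNase that cleaves cytokine messenger RNA) by 0.37; scaled to the spikes, none of the 8 passed. The Zdhhc genes, palmitoyl transferases whose zinc-binding domain is no nucleic acid reader, had 4 rises and 1 fall of 13, with a median of 0.05.

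Among the probe sets set aside because their annotation names several genes, 16 name a Zfp gene. For Zfp706 and Gm10193, which share 5 of them, the brightest read 11.61, 11.52 and 11.58 in USP7-titled arrays, against 11.36, 11.46 and 11.43 in control arrays, and rose by 0.15 (limma adjusted p = 0.0479). Another of the same pair of genes read 5.67, 5.51 and 4.68 in USP7-titled arrays, against 6.61, 6.54 and 6.19 in control arrays, and fell by 1.16 (limma adjusted p = 0.00342). A further _x_at probe set of this pair also fell (-0.88, limma adjusted p = 0.0108). The probe set shared by Zfp960 and Zfp97 fell by 0.57 (limma adjusted p = 0.00764), and that of Zfp526 and 9130221H12Rik by 0.30 (limma adjusted p = 0.026). At low signal, that of Zfp821 and Ccdc7b rose by 0.45 (limma adjusted p = 0.0313). The rest of the 16 did not pass. These probe sets entered no count above.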
